A study of Mus musculus with 6 samples.

Results

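Fibroblast growth factors (FGFs) and their receptors were followed in bone marrow cultures of young and old mice through 10 genes chosen by name from the deposited count table. The 6 ligand genes were Fgf1, Fgf2, Fgf7, Fgf9, Fgf10 and Fgf18, and the 4 receptor genes were Fgfr1, Fgfr2, Fgfr3 and Fgfrl1. All 10 were found, each once, among the 37607 of 39017 listed gene identifiers that carried a mouse symbol. The cells came from BALB/c mice of WT genotype that were either young (3 weeks) or old (above 78 weeks), and there were 3 RNA-seq libraries of each age. Limb bones were crushed, cells that did not adhere were discarded, and the adherent cells were grown in alpha-MEM with fetal bovine serum and labelled as F4/80+CD169+ macrophages; each library was made from 10000 cells. No treatment, allele or agent other than age separated the groups, and both shared the culture. The labels do not say whether the libraries of an age came from separate mice or cultures, so the p-values measure only the spread between these libraries, which may be technical.

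FGFs of the paracrine kind are secreted, bind heparan sulfate near the cell that made them, and bring receptor tyrosine kinases of the FGFR family together; the activated receptor signals through the docking protein FRS2 to the RAS-ERK cascade, phosphatidylinositol 3-kinase and phospholipase C gamma. Alternative splicing of the ligand-binding part gives FGFR1, FGFR2 and FGFR3 an epithelial form (IIIb) and a mesenchymal form (IIIc). FGF7 and FGF10, made by mesenchymal cells, act mainly on the IIIb form of FGFR2. In bone, FGF receptors are known for their part in growth-plate cartilage and in osteoblasts, FGF18 for its action on both, and FGF23, an endocrine member made by osteocytes, for lowering blood phosphate. Gene-level counts do not separate the splice forms.

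Library totals ran from 34391206 to 43367734 counts. Levels are given below in CPM, counts scaled to a common library size after TMM correction, with mean ± SD over n = 3 libraries per age. The macrophage label was checked against 14 marker genes, all detected: their summed level was 8724 to 10430 CPM in the young and 4840 to 5243 CPM in the old libraries, and 11 of the 14 were lower in old, among them Adgre1 (F4/80; log2 fold change -1.06) and Siglec1 (CD169; -1.60). Markers of other cells were present in the same libraries. The fibroblast and stromal list summed to 31150 to 69120 CPM in young and 23770 to 29900 CPM in old, with 2 higher and 3 lower of 14. Most of that sum was Col1a1, Col1a2 and Col3a1, none of them called. The osteoblast and osteocyte list summed to 6690 to 8471 and 7267 to 8889 CPM, with 1 higher and 7 lower of 12 tested and Sost at 0 in every library. Most of this sum was Spp1, the 1 higher gene, at a mean of 4520 CPM in young and 6853 CPM in old. The sum thus hides the 7 lower genes, such as Ibsp, which went from 1204 to 54.8 CPM. Higher and lower counts in old were 1 and 3 of 10 chondrocyte markers, 4 and 1 of 8 articular and synovial markers, 3 and 2 of 10 smooth muscle markers and 1 and 1 of 7 T and NK cell markers. In 5 lists the called markers were all higher: 4 of 8 adipocyte (Lep at 0 in every library), 7 of 8 B cell, 4 of 10 megakaryocyte, 5 of 10 mast cell and basophil and 1 of 3 epithelial markers. The called marker of the endothelial list and that of the neutrophil list, 1 of 10 each, were lower. Young replicate 3 stood apart in its collagen I genes, Col1a1 and Col1a2, which took 5.44% of its counts, where young replicates 1 and 2 had 3.00% and 2.66% and the old libraries 1.80% to 2.25%. Its counts over the whole table also differed widely from those of young replicates 1 and 2 (chi-square per degree of freedom of 106.3 and 112.5). The other pairs of the same age had 22.2 to 29.8. In bulk RNA, fewer cells of a type and less RNA per cell cannot be told apart.

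The FGF system differed between the ages in both directions. Of the 10 genes, 9 passed the filter on low counts; Fgf7, Fgf10 and Fgfrl1 were higher in old and Fgfr1 was lower, at an adjusted p under 0.05 (edgeR's quasi-likelihood test, Benjamini-Hochberg over 15567 genes). The remaining 5 did not pass. Over all genes tested, 5.84% were called higher and 4.70% lower, 10.5% in either direction. The median log2 fold change of the 9 genes was 0.91 against -0.01 over all genes. In 7 of the 9 the young and old libraries did not overlap, 6 of them higher and 1 lower in old, whereas 30.2% of all tested genes showed such a separation. Fgf18 (log2 fold change 1.39) passed the filter only through its old libraries. It is in the median and among the 6 higher genes without overlap, so both carry that condition, and neither was computed without it. The 10 genes were chosen with earlier results of these data known, so the contrast with all genes describes them and is no test of the set.

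**Figure D1:**
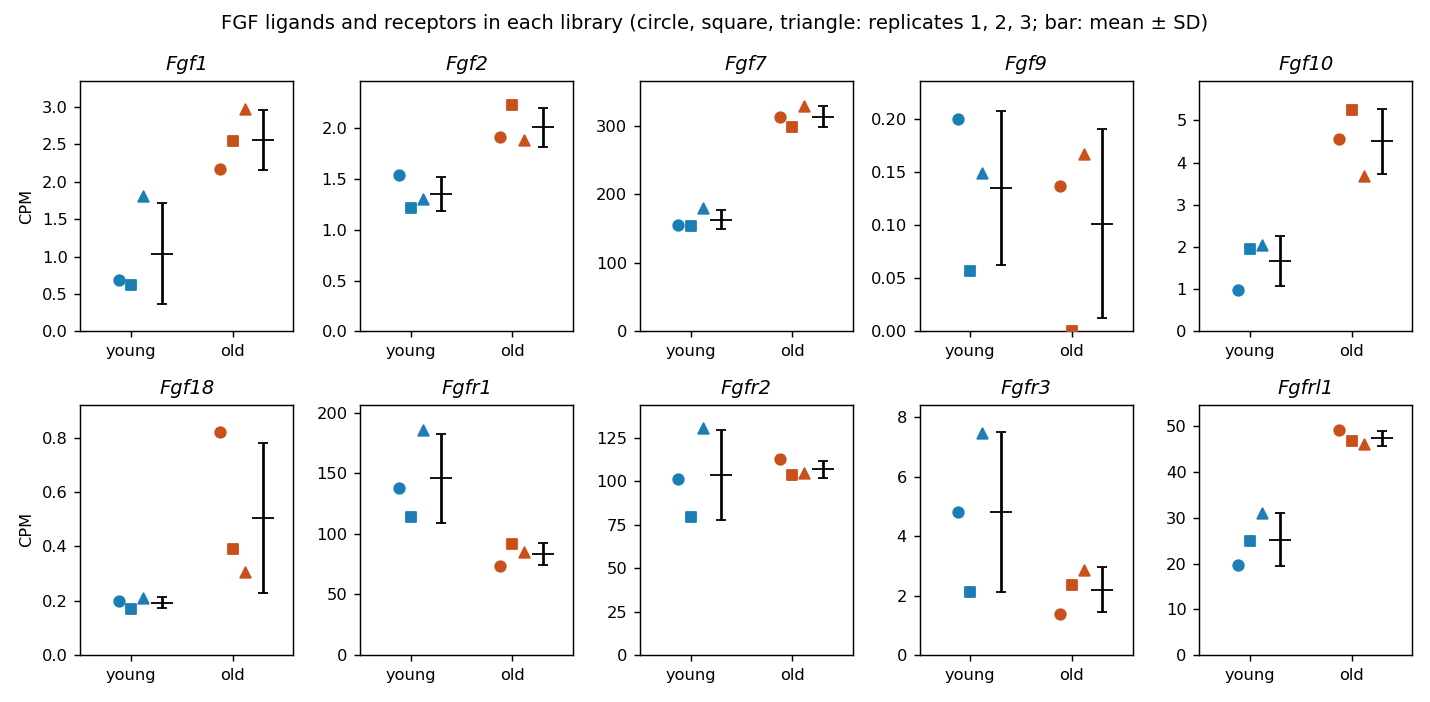
CPM of each of the 10 genes (vertical axes, each starting at 0) in the 3 young and 3 old libraries; points are libraries, and bars are means with SD. Fgf7 stands at 154.4 to 179.6 CPM in young and 298.5 to 329.8 CPM in old, while the 6 libraries of Fgfr2 lie between 79.3 and 130.8 CPM.

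Of the 6 ligand genes, Fgf7 was by far the most abundant per kilobase of exon, and Fgf7 and Fgf10 passed the adjusted threshold, both higher in old (5.84% of all genes tested were called higher). Fgf1 and Fgf2 also had no overlap between the ages, as had 30.2% of all genes, but were not called. Fgf18 entered the test only through its old libraries, Fgf9 was not tested, and Fgf13, a ligand-family gene outside the 6 that is described below, had the lower mean in old. FGF7 and FGF10 belong to the same ligand subfamily, FGF7 being known as keratinocyte growth factor.

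Fgf7 (ENSMUSG00000027208, chromosome 2, 126034658 to 126091185, plus strand, mm10) had 155.3, 154.4 and 179.6 CPM in the young libraries and 313.9, 298.5 and 329.8 CPM in the old. Every old library stood well above every young one. The means were 163 ± 14.3 and 314 ± 15.7 CPM, a rise of 1.93-fold (log2 fold change 0.95, SE 0.09, 95% interval 0.74 to 1.15, adjusted p = 0.00133). The call held in each of the 6 fits that left out 1 library, with log2 fold changes of 0.91 to 1.02, as it did for none of the other called FGF genes.

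Fgf10 (ENSMUSG00000021732, chromosome 13, 118669791 to 118792115, plus strand), a ligand needed for lung and limb buds in the embryo, was present at far fewer counts: 34, 69 and 69 for the young libraries, then 200, 202 and 133 for the old. On the CPM scale these were 0.970, 1.95 and 2.05 in young and 4.56, 5.25 and 3.69 in old. The lowest old library lay above the highest young one, and young replicate 1 was the lowest of all. The rise was 2.71-fold, from 1.66 ± 0.597 to 4.50 ± 0.778 CPM (log2 fold change 1.44, SE 0.32, 95% interval 0.70 to 2.184, adjusted p = 0.0311). The call was lost without old replicate 1, 2 or 3 or young replicate 2, where the adjusted p reached 0.117. Over all 6 such fits the log2 fold change ran from 1.17 to 1.62.

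Beside these, Fgf1 (ENSMUSG00000036585, chromosome 18, 38838673 to 38929472, minus strand), the ligand that binds every FGF receptor, had 0.685, 0.622 and 1.81 CPM in young and 2.17, 2.54 and 2.97 CPM in old. Young replicate 3, the library with the high collagen share, had 61 counts where replicates 1 and 2 had 24 and 22, and still lay below each old library. The log2 fold change was 1.299 (SE 0.44, 95% interval 0.27 to 2.33) with an adjusted p of 0.120, so Fgf1 was not called. Without young replicate 3 the log2 fold change was 1.96 with an adjusted p of 0.00682, and DESeq2 on all 6 libraries gave an adjusted p of 0.0490. The status of Fgf1 thus turned on 1 library and on the tool.

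Fgf2 (ENSMUSG00000037225, chromosome 3, 37348346 to 37410108, plus strand), basic FGF, a mitogen of stromal cells in culture, stood at 1.54, 1.22 and 1.31 CPM in young and 1.92, 2.23 and 1.89 CPM in old. The old libraries were all higher, by a narrow margin. The log2 fold change was 0.57 (SE 0.23, 95% interval 0.02 to 1.12, adjusted p = 0.193), not past the threshold. Of its exonic bases 13.2% overlapped other genes, mainly the antisense neighbour Nudt6, and reads of the pair cannot be told apart in libraries of this kit, which does not mark strand.

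Fgf18 (ENSMUSG00000057967, chromosome 11, 33117430 to 33147400, minus strand), the cartilage and bone ligand, rested on few counts, 7, 6 and 7 among the young libraries and 36, 15 and 11 among the old. Old replicate 1 was the highest, and no young library reached the filter level of 0.278 CPM. Its log2 fold change of 1.39 (SE 0.54, 95% interval 0.13 to 2.65) had an adjusted p of 0.172. Fgf9 (ENSMUSG00000021974, chromosome 14, 58070547 to 58112720, plus strand), a ligand of developing skeleton and gonad, was below the filter, its counts being 7, 2 and 5 (young) and 6, 0 and 6 (old). Its CPM of 0.135 ± 0.0726 and 0.101 ± 0.0889 did not differ beyond the spread (exact 2-sided permutation p = 0.6, where 0.1 is the smallest that 3 against 3 allows).

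The intervals quoted are for single genes and not adjusted, which is why those of Fgf1, Fgf2, Fgf18 and Fgfr3 exclude 0 while the adjusted p does not pass. In all, 8 of the 9 tested genes had an unadjusted p under 0.05, 6 higher and 2 lower in old, with Fgf18 among them. The count depended on the fit: 4 higher and 2 lower in DESeq2, 5 and 1 in limma-voom, and 4 and 1 with the replicate number as a block. The share of all genes at that unadjusted threshold was not computed, so the count is not set against one.

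**Figure D2:**
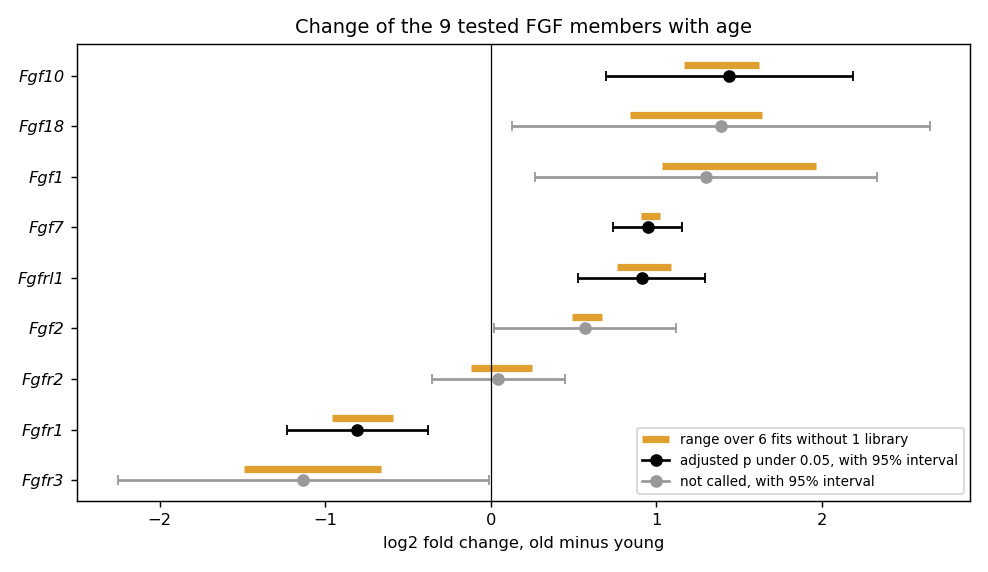
Log2 fold change, old minus young, of the 9 tested genes with 95% intervals (horizontal axis), coloured by whether the adjusted p passed 0.05. Fgf10 (1.44), Fgf7 (0.95) and Fgfrl1 (0.91) lie to the right of 0 as called, and Fgfr1 (-0.81) to the left.

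The receptor genes did not move as a block. Fgfr1 fell, Fgfrl1 rose, Fgfr2 stayed within a wide young spread, and Fgfr3 was lower on average with overlapping ages.

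Fgfr1 (ENSMUSG00000031565, chromosome 8, 25513654 to 25575718, plus strand), the main FGF receptor of mesenchymal cells, had 137.9, 113.6 and 185.6 CPM in young and 73.7, 91.7 and 84.6 CPM in old. All old libraries were lower than all young ones, and young replicate 3 was the highest. The mean fell from 145.7 ± 36.6 to 83.3 ± 9.09 CPM, 1.75-fold lower (log2 fold change -0.81, SE 0.18, 95% interval -1.23 to -0.38, adjusted p = 0.0338). The call was lost without old replicate 1, 2 or 3 or young replicate 1, with an adjusted p of up to 0.133. Over all 6 such fits the log2 fold change ran from -0.96 to -0.59, the latter without young replicate 3. Young replicate 3 was highest in both Fgfr1 and the collagen I share, and the fall was called without it (adjusted p = 0.0193).

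Fgfr2 (ENSMUSG00000030849, chromosome 7, 130162451 to 133123350, minus strand) had 101.4, 79.3 and 130.8 CPM in young and 112.7, 103.8 and 104.7 CPM in old. The old libraries lay inside the young range. The log2 fold change was 0.04 (SE 0.17, adjusted p = 0.915), and its 95% interval of -0.36 to 0.44 leaves room for a modest change either way. The annotated model of this gene reaches into Ctbp2, with which it shares 314 exonic bases, 3.04% of its own.

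Within a library the counts of Fgfr1 and Fgfr2 kept a narrow ratio in young, a comparison chosen after the values were seen. Fgfr1 over Fgfr2 counts was 1.36, 1.43 and 1.42 in the young libraries and 0.654, 0.884 and 0.807 in the old. Fgfr1 therefore had more counts than Fgfr2 in each young library and fewer in each old library. The coefficient of variation of the ratio in young was 2.74%, against 25.1% for the CPM of Fgfr1 and 24.9% for that of Fgfr2. In old the ratio varied more than either gene, at 14.99%, against 10.91% for the CPM of Fgfr1 and 4.569% for that of Fgfr2. The mean ratio was 1.40 ± 0.0385 in young and 0.782 ± 0.117 in old (exact 2-sided permutation p = 0.1, the smallest possible). The sum of both genes, 249.5 ± 62.3 CPM in young and 190.4 ± 4.66 CPM in old, overlapped between the ages (exact permutation p = 0.2).

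**Figure D3:**
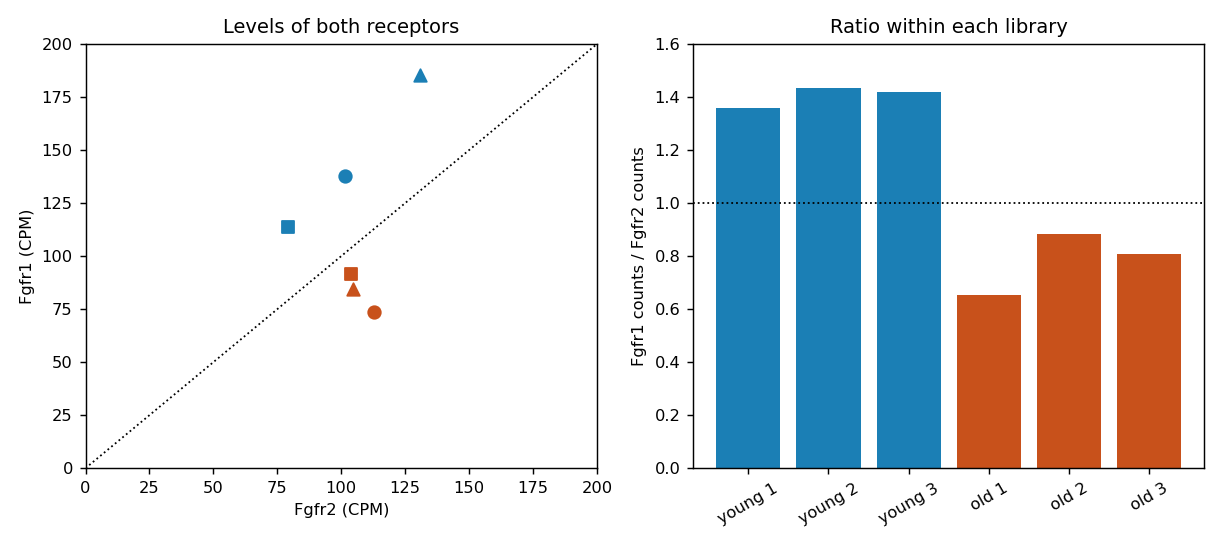
Left, CPM of Fgfr1 against CPM of Fgfr2 in each library, young in blue and old in orange (circle, square and triangle are replicates 1, 2 and 3); right, the ratio of their counts by library, with dotted lines where both are equal. The young libraries lie above the line, with ratios of 1.36 to 1.43, and the old libraries below it, with ratios of 0.654 to 0.884.

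Fgfr3 (ENSMUSG00000054252, chromosome 5, 33721674 to 33737068, plus strand), the receptor that restrains growth-plate cartilage, had 4.82, 2.12 and 7.49 CPM in young and 1.37, 2.36 and 2.86 CPM in old. Young replicate 2 lay among the old libraries, so the ages overlapped. The log2 fold change of -1.13 (SE 0.48, 95% interval -2.25 to -0.01) had an adjusted p of 0.205. Of its exonic bases 13.9% lay opposite G630022F23Rik. As a share of Fgfr1 counts, Fgfr3 was 0.0313 ± 0.0113 in young and 0.0261 ± 0.00763 in old (exact permutation p = 0.5).

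Fgfrl1 (ENSMUSG00000008090, chromosome 5, 108692382 to 108706924, plus strand) encodes a receptor that binds FGFs but lacks the kinase domain. It had 19.7, 24.8 and 31.1 CPM in young and 49.2, 46.8 and 46.2 CPM in old. The old libraries were close to each other and all above the young. The rise was 1.88-fold, from 25.2 ± 5.72 to 47.4 ± 1.59 CPM (log2 fold change 0.91, SE 0.16, 95% interval 0.53 to 1.29, adjusted p = 0.0145). The call was lost without old replicate 1, 2 or 3 or young replicate 2, where the adjusted p reached 0.0658. Per Fgfr1 count there were 0.143, 0.219 and 0.168 Fgfrl1 counts in young and 0.668, 0.511 and 0.546 in old, a ratio also chosen after the values were seen. Because Fgfrl1 rose and Fgfr1 fell with no overlap of the ages, this ratio had to separate them. Its exact permutation p of 0.1, the smallest possible, is therefore no further evidence.

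Some markers of other cell types also differed between the ages, in both directions. Of the 14 fibroblast and stromal markers, whose median log2 fold change was -0.49, Pdgfra (1.23) and Cxcl12 (1.36) rose in old, and Lum (-3.14), Postn (-2.35) and Lepr (-0.73) fell. Of the 12 tested osteoblast and osteocyte markers, with a median of -1.28, Spp1 rose (0.60) and 7 fell, Sp7 (-1.03) and Ibsp (-4.46) among them. The part of those cell types in the results was not tested. Epithelial cells use the IIIb form of Fgfr2, and 3 of their 10 markers were tested; the list summed to 2.38 to 4.10 CPM in young and 2.06 to 3.42 CPM in old, and Krt8, Cldn4 and the splicing regulator Esrp1 were at 0 in every library. The splicing regulator Esrp2 was present in each, at 1.95 ± 0.398 CPM in young and 1.61 ± 0.356 CPM in old, and was not called. Epcam was called higher at a low level (0.0585 and 0.715 CPM), and Cdh1 was not called (0.951 and 0.248 CPM).

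The promoters shown are those of the 3 genes called higher in old. RefSeq promoters on GRCm38.p6, from 250 bases before to 50 after the annotated start, were matched for 8 of the 10 genes (Fgfr3 has a pair of starts), and Fgf1 and Fgfr1 had no entry. On both strands, 6 motifs were searched: the TATA box (TATAAA), the CCAAT box (CCAAT), the GC box (GGGCGG), the AP-1 site (TGANTCA), the E-box (CACGTG) and the RUNX site (TGTGGT). No matches overlap in the windows printed, and 13.6%, 37.4%, 35.7%, 7.81%, 7.15% and 16.8% of the 32851 mouse promoters of that length hold them in this order. Capitals mark every match, also on the opposite strand; the windows are chr2:126034408-126034707 (Fgf7, plus strand), chr13:118714449-118714748 (Fgf10, plus strand) and chr5:108693979-108694278 (Fgfrl1, plus strand), each read 5′ to 3′ along the gene.
Fgf7: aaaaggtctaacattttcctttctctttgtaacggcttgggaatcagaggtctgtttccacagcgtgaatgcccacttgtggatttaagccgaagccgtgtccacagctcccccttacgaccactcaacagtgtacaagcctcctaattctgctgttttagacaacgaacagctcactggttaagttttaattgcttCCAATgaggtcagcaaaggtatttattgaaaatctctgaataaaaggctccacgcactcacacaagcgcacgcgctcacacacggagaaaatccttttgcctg
Fgf10: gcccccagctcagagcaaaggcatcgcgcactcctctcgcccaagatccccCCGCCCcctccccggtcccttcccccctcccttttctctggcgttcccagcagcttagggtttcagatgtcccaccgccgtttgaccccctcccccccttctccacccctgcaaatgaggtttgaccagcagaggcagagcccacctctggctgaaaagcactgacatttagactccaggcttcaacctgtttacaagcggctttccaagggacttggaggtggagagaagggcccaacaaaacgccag
Fgfrl1: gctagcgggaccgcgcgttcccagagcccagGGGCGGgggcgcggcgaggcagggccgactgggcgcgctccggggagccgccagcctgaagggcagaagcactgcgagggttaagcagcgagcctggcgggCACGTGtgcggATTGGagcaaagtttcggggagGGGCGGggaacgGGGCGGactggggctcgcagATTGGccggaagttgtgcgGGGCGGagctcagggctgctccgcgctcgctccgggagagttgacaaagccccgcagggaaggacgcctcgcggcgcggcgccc
The Fgf7 window spans the first base of the gene coordinates given above. Those of Fgf10 and Fgfrl1 lie inside their gene coordinates, so their RefSeq starts differ from the first base of the models used for lengths. The windows were unlike in letters. The Fgf7 window had 45.7% G and C, below the median of 52.7% over all promoters, with a CpG observed over expected ratio of 0.72 and 1 CCAAT box at position -53. Fgf10 had 60.7% G and C, a CpG ratio of 0.39, near the median of 0.38, and 1 GC box on the opposite strand at -199. The Fgfrl1 window was rich in G and C (73.7%, CpG ratio 0.96) and held 4 GC boxes at -219, -85, -73 and -34, 2 CCAAT boxes on the opposite strand at -107 and -53 and 1 E-box at -118. No motif of the 6 was shared by all 3 windows. A match is a description of letters, not of a bound site, and common control of the genes was not tested.

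Per kilobase of exon, which allows genes to be compared, Fgf7 led in both ages with 50.2 CPM per kb in young and 96.7 CPM per kb in old. In young the order below it was Fgfr1 (14.7), Fgfr2 (10.1), Fgfrl1 (9.07), Fgfr3 (0.672), Fgf10 (0.360), Fgf2 (0.200), Fgf1 (0.190), Fgf18 (0.162) and Fgf9 (0.0290), all in CPM per kb. Only Fgf7 and Fgfr1, Fgfrl1 and Fgfr3, and Fgf18 and Fgf9 did not overlap among the 9 neighbouring pairs. In old the order was Fgf7, Fgfrl1 (17.0), Fgfr2 (10.4), Fgfr1 (8.44), Fgf10 (0.978), Fgf1 (0.469), Fgf18 (0.426), Fgfr3 (0.307), Fgf2 (0.297) and Fgf9 (0.0218) CPM per kb, where 3 neighbouring pairs overlapped: Fgf1 with Fgf18, Fgf18 with Fgfr3 and Fgfr3 with Fgf2. Thus Fgfr1 was the receptor with the highest level in young and the lowest of the 3 abundant ones in old. Divided by the longest transcript in place of all exonic bases, Fgfr2 (24.2) stood above Fgfrl1 (20.4) and Fgfr1 (16.5 CPM per kb) in old, so the top receptor in old rests on the length used. The summed level per kb was taken over all 22 genes of the ligand family, not the 6 alone. Of it, Fgf7 made up 94.4% to 95.1% in young and 96.1% to 97.2% in old (exact permutation p = 0.1, the smallest possible). Fgf10 made up 0.675% ± 0.226 and 0.985% ± 0.216 (p = 0.2, exact permutation). That sum includes Fgf13, at 1.57 CPM per kb in young and 0.905 in old, so these shares also depend on its lower level in old.

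**Figure D4:**
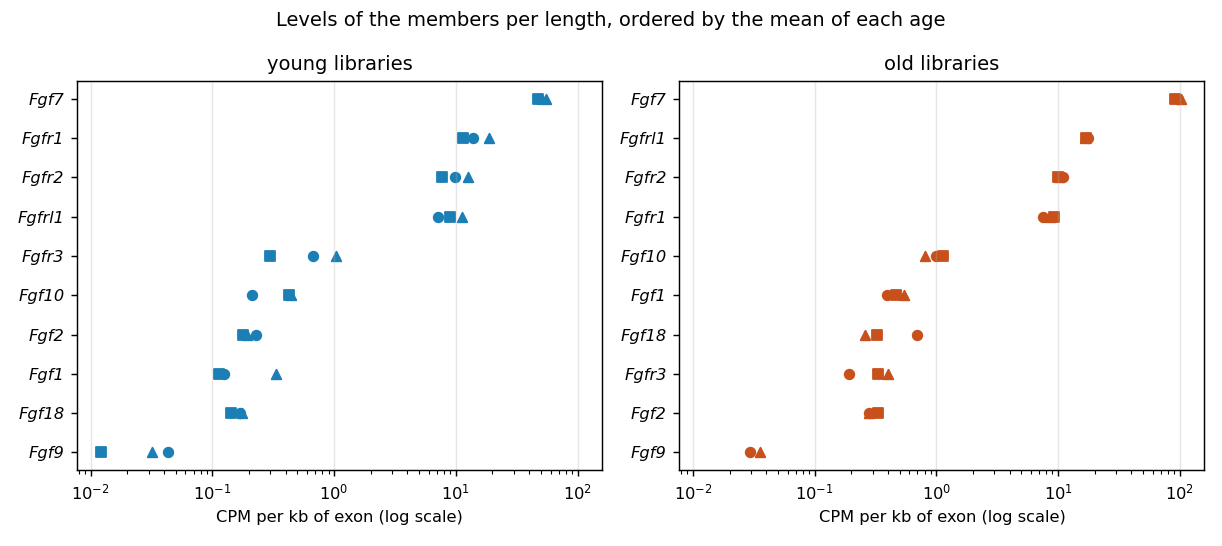
Level of each gene in CPM per kb of exon on a log axis, young and old side by side; points are libraries, and old replicate 2 of Fgf9, at 0, cannot be drawn. Fgf7 stands highest in both ages, at a mean of 50.2 and 96.7 CPM per kb, and Fgf9 lowest.

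Few other FGF ligands were detected. Of the 16 ligand genes outside the 6 above, Fgf4, Fgf6, Fgf8, Fgf15, Fgf16, Fgf17 and Fgf23 had 0 counts in every library, and so had the receptor gene Fgfr4; a count of 0 allows up to 0.0692 to 0.0872 CPM per library. A further 8 had counts but too few to test, with at most 17 in a library (Fgf14 in old replicate 3). Fgf13, an intracellular family member that does not act through FGF receptors, was the 1 tested. The young libraries averaged 6.30 ± 0.363 CPM and the old 3.64 ± 0.980 CPM (log2 fold change -0.79, SE 0.22). At an adjusted p of 0.0648 it was not called, although it was called without old replicate 1 (adjusted p = 0.0372) and by DESeq2 (0.0162).

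Genes of the FGF system other than the 10 were taken from 9 lists, the ligand and receptor families among them, 133 genes in all, of which 130 matched a symbol in the table and 104 were tested. Of these, 13 rose (12.5%) and 11 fell (10.6%) in old, against 5.84% and 4.70% of all genes; 80 were not called, and the median log2 fold change was 0.02. The ages did not overlap in 45.2% of them, against 30.2% of all. These lists too were chosen with earlier results of these data known, so the shares are no test of the set.

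**Figure D5:**
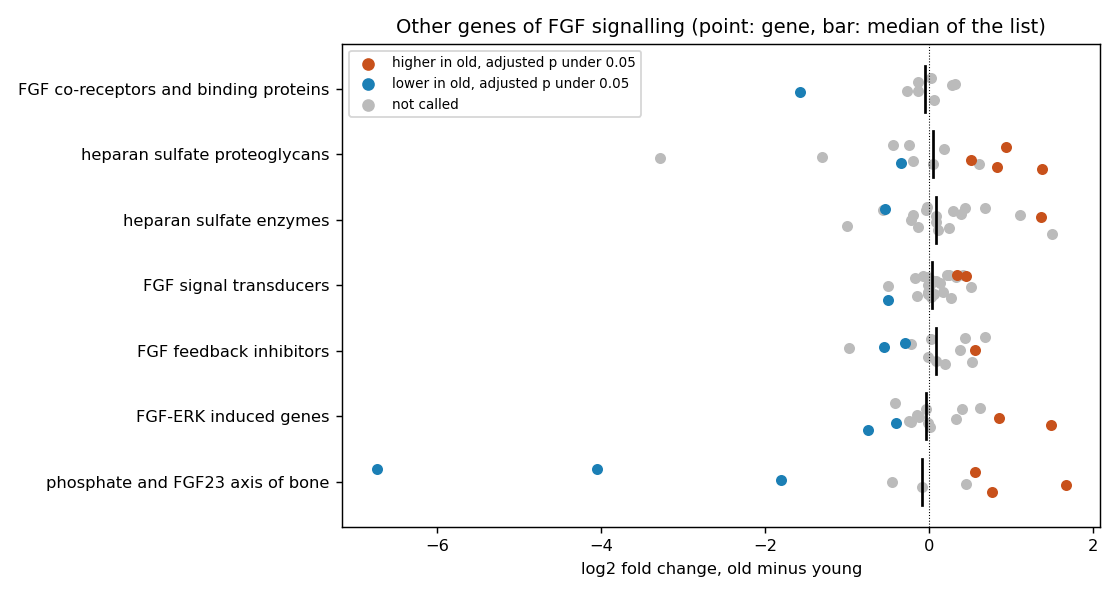
Log2 fold change, old minus young, of the tested genes of the 7 lists other than the ligand and receptor families (points) with the list's median (bar); colours mark calls at an adjusted p under 0.05. The medians lie between -0.08 and 0.09, and the called genes reach from -6.74 (Dmp1) to 1.68 (Vdr).

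At the cell surface, several heparan sulfate carriers were called. Among 8 tested co-receptors and FGF-binding proteins, Flrt3, a transmembrane protein that binds FGF receptors, fell from 8.76 ± 0.272 to 2.95 ± 0.870 CPM (log2 fold change -1.57, adjusted p = 0.00677), and Kl and Fgfbp1 were at 0 in all libraries. Of 13 proteoglycans, 4 rose and 1 fell, with a median of 0.06. Tgfbr3 (betaglycan) rose from 53.7 ± 6.41 to 140.1 ± 16.5 CPM (1.38, adjusted p = 0.00124) and the syndecan Sdc1 from 260.2 ± 33.1 to 498.7 ± 71.6 CPM (0.94, adjusted p = 0.00672). Flrt3, Tgfbr3 and Sdc1 were called in all 6 fits without a library. Sdc4 also rose (0.83, adjusted p = 0.0157), as did Gpc4 (0.51, adjusted p = 0.0463), which lies outside the naming rule, while Sdc2 fell from 778.9 ± 28.8 to 613.8 ± 45.1 CPM (-0.34, adjusted p = 0.0441). Of 19 enzymes that build or trim heparan sulfate, the sulfotransferase gene Hs3st1 rose (1.38, adjusted p = 0.0103) and the heparanase gene Hpse fell (-0.54, adjusted p = 0.0361).

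Of the intracellular genes, 23 of 26 transducers and 10 of 13 feedback inhibitors were not called, where 10.5% of all tested genes were called. Of 26 transducers, 2 rose and 1 fell, with a median of 0.03: the adaptor gene Shc1 (0.46, adjusted p = 0.0199) and the kinase gene Mapk3, which encodes ERK1 (0.34, adjusted p = 0.0474), rose, and Rps6ka1 fell (-0.50, adjusted p = 0.0303). The docking protein Frs2 (0.02) and its partners Grb2 (0.27) and Ptpn11 (-0.01) were not called. Of 13 feedback inhibitors, the ERK phosphatase genes Dusp6 (-0.55, adjusted p = 0.0309) and Dusp7 (-0.29, adjusted p = 0.0476) fell and Dusp4 rose (0.57, adjusted p = 0.0148); Spry1 (0.44) and Spry4 (0.39) were not called. Dusp6 went from 198.6 ± 29.5 to 135.6 ± 8.52 CPM. Each of Sdc2, Sdc4, Hpse, Shc1, Rps6ka1, Mapk3, Dusp4, Dusp6 and Dusp7 lost its call in at least 3 of the 6 fits without a library, and Hs3st1 in 1 (without old replicate 2, adjusted p = 0.0538).

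Of 15 genes induced by FGF and ERK signalling, 2 rose and 2 fell. Phlda1 rose from 31.7 ± 7.89 to 89.4 ± 8.47 CPM (1.497, adjusted p = 0.00337) and Fosl1 from 30.2 to 54.7 CPM (0.85, adjusted p = 0.0104), though 33.0% and 57.2% of their exonic bases overlap other genes. The transcription factor genes Etv1 (-0.74, adjusted p = 0.0144) and Myc (-0.40, adjusted p = 0.0449) fell, while Etv4 (0.41, adjusted p = 0.227) and Etv5 (-0.14, adjusted p = 0.358), standard targets of FGF signalling, were not called. Etv1 lost its call in 3 and Myc in 5 of the fits without a library, and Fosl1 in 1 (adjusted p up to 0.0524).

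Of 9 phosphate and FGF23 genes of bone, 3 rose and 3 fell, with the largest fold changes of the 9 lists. Dmp1, an osteocyte matrix gene that restrains FGF23, fell from 48.3 ± 17.2 to 0.445 ± 0.107 CPM (-6.74, adjusted p = 0.000341) and Galnt3, whose enzyme protects FGF23 from cleavage, from 9.76 to 0.582 CPM (-4.05, adjusted p = 0.000841). Pth1r, the parathyroid hormone receptor of osteoblasts, fell from 410.0 ± 106 to 117 ± 4.98 CPM (-1.80, adjusted p = 0.00199). The vitamin D receptor gene Vdr rose from 27.2 to 86.9 CPM (1.68, adjusted p = 0.00118), as did Fam20c, the kinase that marks FGF23 for cleavage (0.77, adjusted p = 0.00642), and the phosphate carrier gene Slc20a2 (0.56, adjusted p = 0.0242), both outside the naming rule. Dmp1 and Pth1r also stand in the osteoblast and osteocyte marker list, 7 of whose 12 tested genes fell; the part of those cells in the result was not tested. The calls of Dmp1, Galnt3, Pth1r, Vdr and Phlda1 held in all 6 fits without a library.

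The genes whose profile over the 6 libraries lay closest to each called FGF gene were found as the smallest root mean square difference of centred log2(CPM + 1) values among 12406 genes. For Fgf7 they were Dusp10 (0.0402), Gypc (0.0448) and St5 (0.0527), and for Fgfrl1 Lats2 (0.0607), Ly75 (0.0616) and Tle6 (0.0625). Those nearest to Fgf10 were Sbsn (0.0873), Sel1l3 (0.0887) and Cavin2 (0.0961), and those nearest to Fgfr1 were Kcnk6 (0.109), Dnm3 (0.113) and Mtus2 (0.116). The distances of Fgfr1 were the widest of the 4. Sbsn (adjusted p = 0.0538) and Mtus2 (adjusted p = 0.107) were not called themselves.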

How the data were processed

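Each of the 6 libraries was made from RNA of 10000 cells with a SMART-Seq v4 low-input kit, which does not mark strand, sheared and sequenced as 100 bp pairs on an Illumina HiSeq, per the labels' protocols. The deposited table holds raw counts per Ensembl gene, whole numbers that were not normalized. The submitters' processing notes name the mm10 build and StringTie 1.3.4d, STAR 2.6.1a, SAMtools 1.9, Trim Galore 0.50, HISAT2 2.1.0, cutadapt 1.18 and Picard 2.18.15, without roles; for the counter, its strand setting and its annotation, nothing was given in the sources used here. Symbols, lengths and overlaps came from GENCODE M21. Rows without a symbol held 0.339% to 0.398% of the counts.

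Counts were fitted over all genes in edgeR 4.0.16 (R 4.3.3) with filterByExpr (10 counts, or 0.278 CPM, in 3 libraries), TMM scaling, a robust quasi-likelihood fit on age alone and Benjamini-Hochberg adjustment with a threshold of 0.05; the code was tested on simulated data. Alternatives were DESeq2 1.42.0, limma-voom 3.58.1, other scalings and filters, a replicate block and leaving out each library. Ratios were tested by exact 2-sided permutation (scipy 1.17.1). All FGF genes were named, with up to 4 called genes of smallest p per pathway list, the 3 nearest profiles to each called FGF gene, and markers. The members and lists were chosen with earlier results of these data known. No pair of replicates agreed within counting noise, so none was treated as a library deposited again; this does not show that they are independent samples.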

Additional observations from a re-analysis of the deposited data

How the results depend on the processing

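Across limma-voom, scaling by upper quartile, by DESeq2 size factors or with the 50 most abundant genes left out, a non-robust fit and both other filters, 3 FGF genes were called higher and 1 lower, as reported; with at least 50 counts in 3 libraries Fgf18 was dropped. DESeq2 called 4 higher (Fgf1 added) and 1 lower, 1331 genes higher and 1137 lower in the whole table, and 20 and 14 pathway genes. Leaving out 1 library at a time gave 1 to 4 FGF genes higher and 0 to 1 lower, 418 to 1459 genes higher and 294 to 1168 lower, and 5 to 26 and 4 to 14 pathway genes; Fgfr2 ran from -0.12 (without young replicate 2, the opposite sign) to 0.25. The largest counts over all genes, 1459 higher and 1168 lower, came without young replicate 3. The cause was not tested. Of the calls, 1 of 4 FGF genes and 8 of 21 named pathway genes held in all 6 of these fits. With the replicate number as a block, edgeR called 2 FGF genes higher and 0 lower, Fgf10 having an adjusted p of 0.0529 and Fgfr1 of 0.0514. It called 711 genes higher and 575 lower in the whole table, and 12 and 9 pathway genes. At an unadjusted p under 0.05 the block fit had 4 FGF genes higher and 1 lower, and DESeq2 without the block had 4 and 2. Same-numbered libraries deviated together only weakly (correlations of 0.0884, 0.0343 and 0.0825), so the numbers were not taken to pair the samples, although each library correlated best with its own number. Below about 10 counts, as for Fgf9, depth limits any comparison.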
